A study of Mus musculus with 6 samples.

Results

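The genes described here were 4 cadherins (*Cdh2*, *Cdh7*, *Cdh11* and *Cdh13*) and 4 catenins (*Ctnna1*, *Ctnnb1*, *Ctnnd1* and *Jup*), taken by symbol from a table of 28987 genes. They were measured by RNA-seq in EGFP+ ventricular cells of mice, isolated by flow sorting 4 weeks into pressure overload produced by surgical narrowing of the aorta (transverse aortic constriction, TAC). Mice underwent surgery at 8 to 10 weeks of age. Both groups carried a tamoxifen-activated Cre recombinase (MerCreMer) inserted in the *Postn* gene and a Cre-dependent eGFP reporter in the *Rosa26* locus. Both received tamoxifen, given in the labels as 100 mg/kg by injection with 40 mg/kg in chow, so the control cells had also been exposed to active Cre. The second group additionally carried loxP-flanked *Hsp47* alleles, and *Hsp47* (*Serpinh1*), which encodes a collagen chaperone, was to be lost from the same cells. Each group had 3 libraries, and the comparison asks how the transcripts of activated fibroblasts differ when *Hsp47* is targeted in them. The sort selects for cells in which *Postn* was once active, so fibroblasts that never switched it on are meant to be left out. The purity of the sort was not tested.

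Cadherins are membrane proteins that bind cadherins of a neighboring cell through calcium-dependent extracellular repeats. Classical cadherins bind p120-catenin and β-catenin (or plakoglobin) on their cytoplasmic tail, and α-catenin couples that complex to actin in adherens junctions. β-Catenin that is not held at the membrane is degraded or enters the nucleus, where it acts with TCF/LEF factors as the transcriptional arm of canonical Wnt signaling. In the heart, N-cadherin is known for joining cardiomyocytes at the intercalated disc, and cadherin-11 for contacts between fibroblasts.

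The authors deposited log2(value + 1) for each gene and library, and all levels below are on that scale unless called linear. The linear unit is not named, the values are not counts, and the depth per library is unknown. The linear values summed to between 690499 and 855404 per library. Control replicates 3 and 4 came from one sequencing run (the first run), whereas control replicate 2 and all 3 Hsp47-deleted libraries came from another (the second run), so run and group can be separated only through 1 control. Over the tested genes, control replicate 2 correlated better with the Hsp47-deleted libraries (Pearson r 0.872 to 0.936, across genes) than with the other controls (0.761 to 0.827). Values per library are given in the order of control replicates 3, 4 and 2, then Hsp47-deleted replicates 1, 2 and 3. Control replicate 2 is called the second-run control. Nothing in the labels ties each library to a separate animal, so p-values measure only the spread between these libraries. Gene positions are those of GRCm38. *Serpinh1* (chr7:99345376-99353239, minus strand) was 6.28, 6.10 and 7.60 in the controls and 6.87, 6.67 and 6.66 in the libraries labelled Hsp47-deleted. The groups overlapped, with a difference of 0.072 (SE 0.43, limma, adjusted p = 0.947), and the deleted libraries averaged 0.87 below the second-run control (adjusted p = 0.667 in a fit that also held the run). The targeted gene therefore did not separate the groups as labelled, and every direction below is that of the libraries labelled Hsp47-deleted. For protein, the paper reports that Western blots of sorted EGFP+ cells from this cross showed Hsp47 to be efficiently deleted. Genotyping in the paper's methods places loxP sites at a single exon, and the deposited value covers the whole gene. That value may include transcript from the exons that remain, which was not tested.

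The fibroblast label was checked against 10 markers, whose summed linear level was 8070 to 11000 in the controls and 12600 to 14400 in the libraries labelled Hsp47-deleted. *Postn*, the locus that drives Cre, was itself higher in the latter (log2 fold change 4.41, SE 0.28, limma, adjusted p = 0.00337). Leukocyte markers summed to 30.4 to 88.3 in the controls and 94.7 to 120 in the Hsp47-deleted libraries, with no overlap. This held for the sum only, and each tested leukocyte marker overlapped between the groups. In linear units *Cd68* was 63.6 in control replicate 4 against 51.9 to 62.3 in the Hsp47-deleted libraries. *Lyz2* was 56.7 in control replicate 2 against 27.3 to 42.6. All 6 tested leukocyte markers had positive fold changes (median 1.09, beside 0.355 for all tested genes), 0 passed an unadjusted p under 0.05, and *Ptprc*, the defining one, was listed at 0 in all 6 libraries. The 5 mesothelial markers summed to at most 1.47. Mural markers summed to 163 to 288 in the controls and 111 to 169 in the Hsp47-deleted libraries, with 0 of 6 different at an unadjusted p under 0.05. The cardiomyocyte, endothelial, leukocyte and Schwann cell sums of each library are given beside single genes. In such sorted bulk samples, fewer cells of a type and less RNA per cell cannot be told apart.

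Fold changes are the libraries labelled Hsp47-deleted minus control on the log2(value + 1) scale, which understates changes in genes with low values. The filter (a linear mean of at least 1 over the 6 libraries) passed 15109 genes, among them 7 of the 8 members. *Cdh7* stayed under it and was fitted without the filter. At an adjusted p under 0.05, 0 of the 7 tested members were called by limma, against a background of 37 genes (0.245%). At an unadjusted p under 0.05, 2 members, *Cdh2* and *Ctnnb1*, were higher (background 14.5%) and 0 were lower (background 0.755%). The 3 Hsp47-deleted values lay above all 3 controls for *Cdh2*, *Ctnnb1* and *Ctnna1*, and below them for *Cdh7* and *Cdh11*. The remaining 3 members overlapped. Over all genes of the table, the groups separated upward in 12.2% and downward in 1.27%. These shares include 13878 genes under the filter, and the shares over the tested genes alone are not given here. Of the 59 tested genes of the pathway lists described below, 15 separated upward and 0 downward. The tested genes as a whole leaned upward, with 74.5% positive and a median of 0.355, beside a median of 0.181 for the 7 members. After each library was centred on its median, the medians were -0.0603 and -0.234, with *Ctnnb1* higher (background 4.73%) and *Cdh11* lower (background 3.48%) at an unadjusted p under 0.05. Without control replicate 2, 2 members (*Ctnnb1* and *Cdh2*) were called higher, and 16.4% of all tested genes were called higher in that fit.

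**Figure D1:**
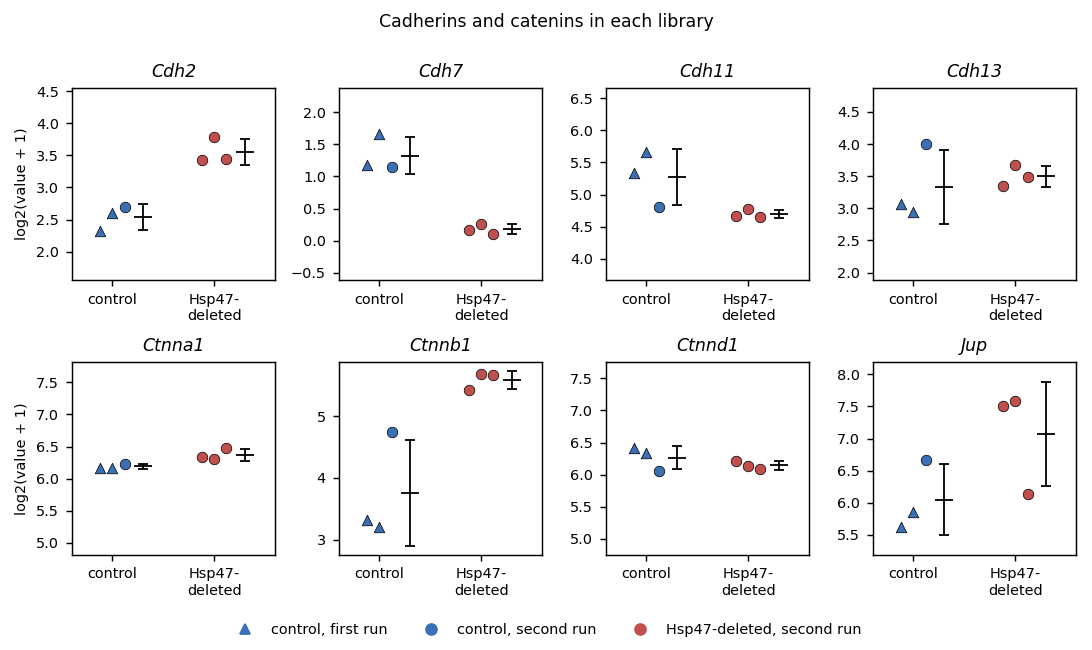
Log2(value + 1) of each cadherin and catenin (vertical axes, each with its own offset) in the 3 control and 3 Hsp47-deleted libraries, where triangles mark the first sequencing run, circles the second, and bars the mean ± SD of each group. The groups do not overlap for *Cdh2*, *Cdh7*, *Cdh11*, *Ctnna1* and *Ctnnb1*, and in *Ctnnb1* the second-run control (4.74) sits between the other controls and the Hsp47-deleted libraries.

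*Cdh2* (chr18:16588877-16809246, minus strand) encodes N-cadherin, a classical type I cadherin. Its level was 2.32, 2.61 and 2.70 in the controls, and 3.43, 3.79 and 3.44 in the Hsp47-deleted libraries. The 3 controls lay close together across both runs, and the lowest Hsp47-deleted library stood 0.73 above the highest control. Group means were 2.55 ± 0.20 and 3.55 ± 0.21 (SD, n = 3 each), a log2 fold change of 1.01 (SE 0.30, limma, adjusted p = 0.281). On the linear scale the authors' values averaged 4.87 in controls and 10.8 in Hsp47-deleted libraries, a ratio of 2.22. Against the second-run control the difference was 0.85, the same size as with sequencing run as a covariate (SE 0.38, adjusted p = 0.732). Centring reduced it to 0.59 (adjusted p = 0.590). Leaving out control replicate 2 brought the adjusted p to 0.0482. The summed leukocyte markers were 30.4, 66.8 and 88.3 in the controls and 94.7, 120 and 95.7 in the Hsp47-deleted libraries, which is the same rank order of the 6 libraries as that of *Cdh2*. Each tested leukocyte marker taken singly overlapped between the groups. The part of these markers in the *Cdh2* values was not tested.

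*Cdh7* (chr1:109982431-110140157, plus strand), a type II cadherin, was the member with low values throughout. Its level was 1.17, 1.66 and 1.14 in the controls, and 0.17, 0.26 and 0.11 in the Hsp47-deleted libraries. In linear units these were 1.26, 2.17 and 1.21 against 0.128, 0.20 and 0.0803. All 3 Hsp47-deleted libraries were below all 3 controls by at least 0.88, and the second-run control lay with the controls of the first. Without the filter the log2 fold change was -1.14 (SE 0.17, limma, adjusted p = 0.218), where 0.611% of 28987 genes were lower at an unadjusted p under 0.05. With run as a covariate it was -0.96 (SE 0.23, adjusted p = 0.452). Linear means were 1.54 and 0.136, and controls were 11.3 times as high. The size depended on the pseudocount, with -2.78 at a pseudocount of 0.1 and -0.35 at 5. After centring *Cdh7* passed the threshold (-1.56, adjusted p = 0.0357), but 26.4% of the unfiltered genes did so in that fit because values of 0 are shifted as well.

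*Cdh11* (chr8:102632095-102785642, minus strand) encodes cadherin-11, another type II cadherin. It measured 5.34 and 5.66 in control replicates 3 and 4, 4.80 in control replicate 2, and 4.66, 4.77 and 4.65 in the Hsp47-deleted libraries. The groups were separated by a gap of only 0.04, and the second-run control lay nearer to the Hsp47-deleted libraries than to the other controls. The log2 fold change was -0.58 (SE 0.31, limma, adjusted p = 0.397), from 5.27 ± 0.43 to 4.69 ± 0.07. It was -0.11 with run as a covariate (adjusted p = 0.934) and -0.99 after centring (adjusted p = 0.590). Ranked among the tested genes of its own library, *Cdh11* stood at percentile 86.9, 87.9 and 80.6 in the controls and 74.4, 74.4 and 72.2 in the Hsp47-deleted libraries.

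*Cdh13* (chr8:118283733-119324921, plus strand) encodes T-cadherin, which is anchored to the membrane by a lipid and has no cytoplasmic tail for catenins. Its values were 3.07, 2.94 and 4.00 in the controls and 3.35, 3.67 and 3.48 in the Hsp47-deleted libraries. The second-run control was the highest of all 6 libraries. The log2 fold change of 0.16 (SE 0.37, limma, adjusted p = 0.846) turned to -0.50 with run as a covariate, to -0.25 after centring and to -0.27 after quantile normalization. The endothelial markers summed to 138, 77.7 and 248 in the controls and to 233, 198 and 153 in the Hsp47-deleted libraries, also highest in the second-run control, with 2 of 8 markers higher at an unadjusted p under 0.05 and none at 0, and their part in the *Cdh13* values was not tested.

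Of the catenins, *Ctnnb1* and *Jup* bind the same region of classical cadherin tails. Promoter windows were read from RefSeq (GRCm38.p6) for 4 of the 8 members. The other members had no entry in the set used or were left out of it beforehand, so 4 does not count the members that RefSeq holds. These 2 are shown because they are the homologous β-catenin and plakoglobin genes, with the largest positive fold changes among the catenins, and because their windows lie wholly outside annotated exons. Each gives the 250 bases before the first start listed in RefSeq, 5′ to 3′ on the strand of the gene. Capitals mark the CCAAT box (CCAAT or ATTGG) and the GC box (GGGCGG or CCGCCC), searched on both strands. The *Ctnnb1* window is chr9:120933150-120933399 (plus strand) and that of *Jup* is chr11:100397791-100398040 (minus strand). The *Ctnnb1* window lies inside the span given for the gene below, which comes from GENCODE and begins at 120929216.
Ctnnb1: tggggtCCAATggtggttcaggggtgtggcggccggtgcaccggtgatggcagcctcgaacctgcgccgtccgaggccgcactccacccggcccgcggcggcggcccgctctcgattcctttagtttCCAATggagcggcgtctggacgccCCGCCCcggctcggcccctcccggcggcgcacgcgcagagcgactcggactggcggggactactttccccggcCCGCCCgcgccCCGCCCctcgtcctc
Jup: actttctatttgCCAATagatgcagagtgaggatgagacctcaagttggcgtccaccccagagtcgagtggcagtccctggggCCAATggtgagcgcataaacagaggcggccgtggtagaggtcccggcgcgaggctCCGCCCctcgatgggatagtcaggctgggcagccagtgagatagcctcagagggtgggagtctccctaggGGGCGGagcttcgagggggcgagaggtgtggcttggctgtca
*Ctnnb1* held 2 CCAAT boxes and 3 GC boxes, and *Jup* held 2 of each. Over the 32851 RefSeq promoters of the same length, 33.8% held at least 1 CCAAT box and 32.7% at least 1 GC box. Neither window held the TCF/LEF core letters CTTTG (or CAAAG), which 48.6% of promoters held, nor the E-box letters CACCTG (or CAGGTG), held by 17.2%. The 2 windows were 74.8% and 62.0% G and C, respectively. A match to such letters describes the sequence and not a bound site.

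*Ctnnb1* (chr9:120929216-120960507, plus strand) had the largest fold change of the 8 members on the log2(value + 1) scale with all libraries as deposited, whereas *Cdh7* had the larger change in linear units, at a pseudocount of 0.1, after centring and against the second-run control. Its level was 3.31, 3.21 and 4.74 in the controls, and 5.42, 5.68 and 5.67 in the Hsp47-deleted libraries. In linear units the controls held 8.88, 8.24 and 25.6, and the Hsp47-deleted libraries 41.9, 50.3 and 49.7. The groups were separated by 0.69, but the second-run control stood 1.48 above the mean of the other controls. The log2 fold change was 1.84 (SE 0.44, limma, adjusted p = 0.218), from 3.75 ± 0.86 to 5.59 ± 0.14. Within the second run the difference was 0.85, a linear ratio of 1.84 in place of the pooled 3.32. With run as a covariate it was also 0.85 (SE 0.34, adjusted p = 0.714), in a fit where 5.46% of tested genes were higher at an unadjusted p under 0.05. After centring it was 1.42 (adjusted p = 0.504). Its percentile among the tested genes of its library was 59.9, 54.1 and 79.6 in the controls and 85.0, 86.5 and 84.7 in the Hsp47-deleted libraries. Without control replicate 2 the fold change was 2.33 (adjusted p = 0.00331), and over all alternatives the adjusted p ranged from 0.00331 to 0.783. Exons of *Ulk4* overlap those of *Ctnnb1* on the other strand, and *Ulk4* had a log2 fold change of 0.19 in all libraries and of 1.18 with run as a covariate (SE 0.48, limma, adjusted p = 0.716), where *Ctnnb1* had 0.85. The summed leukocyte markers given for *Cdh2* ranked the libraries as *Ctnnb1* did, apart from the order of the controls of the first run, and their part in the *Ctnnb1* values was not tested.

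*Jup* (chr11:100368958-100397763, minus strand) encodes plakoglobin, a catenin of both adherens junctions and desmosomes. It was 5.63, 5.85 and 6.67 in the controls and 7.50, 7.58 and 6.13 in the Hsp47-deleted libraries. The groups overlapped, because Hsp47-deleted replicate 3 was lower than the second-run control. The log2 fold change was 1.02 (SE 0.48, limma, adjusted p = 0.347), and it was 1.49 without Hsp47-deleted replicate 3. With run as a covariate it was 0.40 (adjusted p = 0.855), and after centring 0.60 (adjusted p = 0.642). The summed cardiomyocyte markers, of which 2 of 9 tested were higher at an unadjusted p under 0.05 and 0 lower, were 105, 52.7 and 299 in the controls and 248, 299 and 183 in the Hsp47-deleted libraries. They were lowest in the 2 controls with the lowest *Jup*, and within the Hsp47-deleted group lowest in the library with the lowest *Jup*. Between these 2 controls the order was reversed. The pattern was not particular to cardiomyocyte markers. It also held for the endothelial sums given for *Cdh13*. The sums of the 5 Schwann cell markers had it too (8.82, 10.5 and 16.5 in the controls, then 21.5, 19.3 and 16.4). Of the cardiomyocyte markers, *Myl3* was at 0 in 1 library and no other in any. The part of the markers of these cell types in the *Jup* values was not tested. For *Cdh2*, control replicate 2 held the same summed cardiomyocyte level (299) as Hsp47-deleted replicate 2 with a *Cdh2* level of 2.70 against 3.79. Single markers differed within these equal sums, in both directions. In linear units *Ttn* was 8.72 in control replicate 2 against 37.2 in Hsp47-deleted replicate 2, and *Nppa* was 35.0 against 4.48. The part of the cardiomyocyte markers in the *Cdh2* values was not tested.

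**Figure D2:**
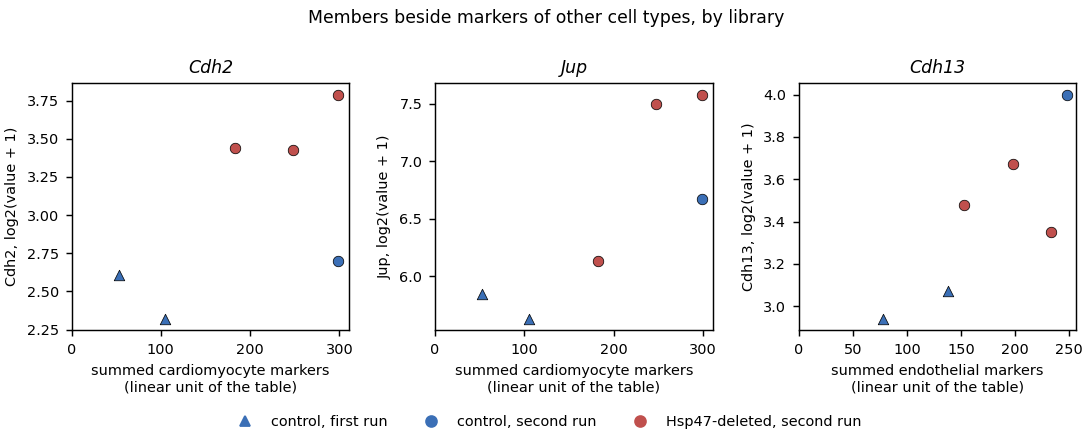
*Cdh2*, *Jup* and *Cdh13* in log2(value + 1) (vertical axes) against the summed linear level of the cardiomyocyte or endothelial markers (horizontal axes), with 1 point per library. At a cardiomyocyte sum of 299, *Cdh2* was 2.70 in the second-run control and 3.79 in Hsp47-deleted replicate 2. *Cdh13* was highest (4.00) in the control with the highest endothelial sum (248). The part of the markers in these values was not tested.

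*Ctnna1* (chr18:35118859-35254779, plus strand) encodes αE-catenin, the link to actin. It varied least of the members, at 6.17, 6.17 and 6.23 in the controls and 6.33, 6.31 and 6.48 in the Hsp47-deleted libraries. The groups did not overlap, but the gap was 0.08 and the log2 fold change 0.18 (SE 0.26, limma, adjusted p = 0.747). The direction turned after centring (-0.23) and quantile normalization (-0.16), so no direction is given for it. *Ctnnd1* (chr2:84600071-84650765, minus strand) encodes p120-catenin, which holds cadherins at the cell surface. Its level was 6.41, 6.33 and 6.06 in the controls and 6.22, 6.13 and 6.09 in the Hsp47-deleted libraries. These overlapped, with a log2 fold change of -0.12 (SE 0.27, limma, adjusted p = 0.843), which was 0.084 with run as a covariate. Exons of *Ctnnd1* are shared with the overlapping gene *Gm28635* on the same strand, so its values are uncertain to that extent. Exons of *Lrrtm2* overlap *Ctnna1* on the other strand.

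**Figure D3:**
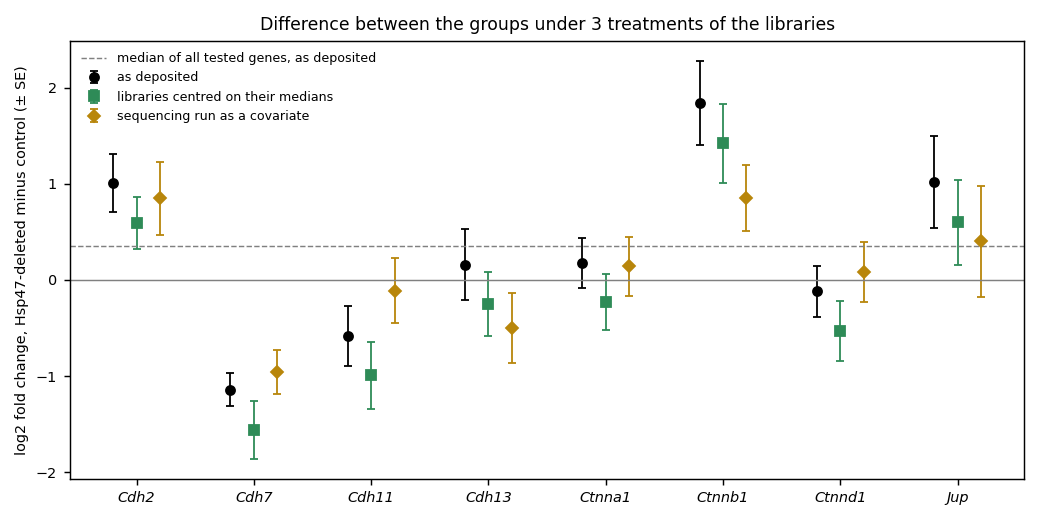
Log2 fold change (Hsp47-deleted minus control, ± SE) of each member with the libraries as deposited, centred on their medians, or with sequencing run as a covariate (*Cdh7* fitted without the filter). *Cdh2*, *Ctnnb1* and *Jup* stay above 0 and *Cdh7* and *Cdh11* below 0 in all 3 fits, while *Cdh13*, *Ctnna1* and *Ctnnd1* change side of 0.

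Because scaling moves all genes of a library together, the other 7 members were also set against *Ctnnb1* within each library. A difference of this kind shows unequal change and not which gene changed. *Ctnna1* exceeded *Ctnnb1* by 2.87, 2.96 and 1.49 in the controls and by 0.91, 0.63 and 0.81 in the Hsp47-deleted libraries. *Ctnnd1* exceeded it by 3.11, 3.12 and 1.33 and by 0.80, 0.45 and 0.43, respectively. In both cases the groups did not overlap, and the second-run control lay between. The mean differences changed by -1.66 for *Ctnna1* and by -1.96 for *Ctnnd1*. *Cdh11* lay above *Ctnnb1* in the controls (1.52 ± 1.27) and below it in the Hsp47-deleted libraries (-0.90 ± 0.13, n = 3 each). The change was -2.42 in all libraries and -0.97 against the second-run control. *Cdh7* and *Cdh13* also separated without overlap, by -2.98 and -1.68. For these 5 genes the two-sided exact permutation test gave p = 0.10, the smallest that 3 against 3 can give (adjusted p = 0.140 over 7 comparisons). *Ctnnb1* itself separated the groups by 0.69. Members with small fold changes of their own, such as *Ctnna1* (0.18) and *Ctnnd1* (-0.12), therefore also separate when set against it. The count of 5 does not stand apart from the *Ctnnb1* values. The share of all genes that separate against *Ctnnb1* was not computed, so this count has no background beside it. *Cdh2* and *Jup* overlapped between the groups, with changes of -0.83 (exact permutation p = 0.30) and -0.82 (exact permutation p = 0.20). Leaving out 1 library moved these to between -1.24 (without control replicate 2) and -0.53 (without control replicate 4) for *Cdh2*, and to between -1.12 (without Hsp47-deleted replicate 1) and -0.31 (without Hsp47-deleted replicate 3) for *Jup*. Against the second-run control, the difference between *Cdh2* and *Ctnnb1* changed by -0.0011.

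Set against *Ctnna1*, chosen as the reference after its values were seen to differ least, *Cdh2* changed by 0.83, from -3.65 ± 0.18 to -2.82 ± 0.27. *Ctnnb1* changed by 1.66, *Cdh7* by -1.32 and *Cdh11* by -0.76. The value for *Ctnnb1* is the comparison with *Ctnna1* already given above, with its sign reversed. These 4 separated without overlap (exact permutation p = 0.10, adjusted p = 0.175 over 7 comparisons), whereas *Cdh13* (-0.019), *Ctnnd1* (-0.30) and *Jup* (0.84) overlapped. The share of all genes that separate against *Ctnna1* was not computed either. Against the second-run control the changes were 0.71 for *Cdh2*, 0.71 for *Ctnnb1*, -1.10 for *Cdh7*, -0.26 for *Cdh11*, -0.65 for *Cdh13*, -0.058 for *Ctnnd1* and 0.25 for *Jup*. The sign for *Cdh2* thus depends on the reference. *Cdh7* and *Cdh11* were lower, without overlap, relative to either reference. *Ctnnd1* was also lower relative to either, but its groups overlapped when set against *Ctnna1*. *Cdh13* was lower relative to *Ctnnb1* only, because its change of -0.019 against *Ctnna1* gives no direction.

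**Figure D4:**
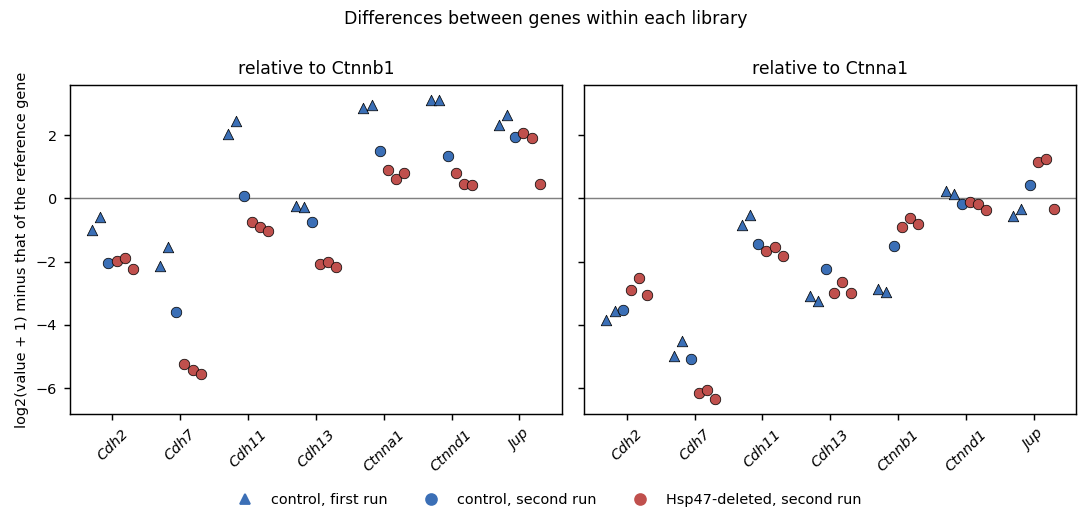
Log2(value + 1) of each member minus that of *Ctnnb1* or of *Ctnna1* in the same library (vertical axis), with 1 point per library. *Ctnna1* and *Ctnnd1* stand 2.87 to 3.12 above *Ctnnb1* in the controls of the first run and 0.43 to 0.91 above it in the Hsp47-deleted libraries.

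Other genes of the junctions and of β-catenin signaling were taken from 8 lists that held 89 distinct genes of the table, 59 of them tested. At an unadjusted p under 0.05, 8 (13.6%) were higher and 0 were lower, near the background of 14.5% and 0.755%, and 0 were called after adjustment. Their median fold change was 0.38, beside 0.355 for all tested genes. After centring, 2 were higher and 2 lower.

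Among adherens junction partners, 3 of 16 tested genes were higher at an unadjusted p under 0.05, with a median of 0.35. *Mllt4*, which encodes the nectin- and actin-binding protein afadin, was 4.93, 4.95 and 5.74 in the controls and 6.80, 6.94 and 6.60 in the Hsp47-deleted libraries. It separated the groups, with a log2 fold change of 1.57 (SE 0.33, limma, adjusted p = 0.150), 1.04 with run as a covariate (adjusted p = 0.601) and 1.16 after centring (adjusted p = 0.448). *Actn4*, which encodes the actin crosslinker α-actinin-4, was 6.18, 6.30 and 6.33 in the controls and 7.08, 7.39 and 7.71 in the Hsp47-deleted libraries. The controls of both runs agreed closely for this gene, and its fold change of 1.12 (SE 0.29, limma, adjusted p = 0.251) was 1.06 against the second-run control.

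Of 19 other cadherins only 5 passed the filter, and 0 of them differed at an unadjusted p under 0.05. The 2 with the smallest p were *Cdh19* (0.75, adjusted p = 0.344), also used here as a Schwann cell marker, and *Cdh5* (0.86, adjusted p = 0.455), the endothelial VE-cadherin. Neither separated the groups. Without *Cdh19* itself, the 4 other Schwann markers summed to 3.83, 4.07 and 6.36 in the controls and 6.66, 6.88 and 6.38 in the Hsp47-deleted libraries, and their part in the *Cdh19* values was not tested. Of the other catenins and p120 relatives, 1 of 5 tested was higher at an unadjusted p under 0.05, namely *Arvcf* (1.15, adjusted p = 0.313), with overlapping groups. *Ctnna2*, which encodes αN-catenin, had a fold change of -0.57 (adjusted p = 0.548).

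Of 10 desmosomal genes, *Dsp* (desmoplakin) alone passed the filter, with a fold change of 0.75 (adjusted p = 0.405). The other 9, which include the desmosomal cadherins and *Pkp2*, had no linear value above 0.964 in any library. *Jup* was thus present in libraries in which the other desmosomal genes were at low values.

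Among the 11 genes of β-catenin turnover, 0 differed at an unadjusted p under 0.05, with a median of 0.56. *Axin2*, both a scaffold of the destruction complex and a common target of β-catenin, was 0.13, 0.58 and 1.18 in the controls and 1.88, 1.43 and 1.22 in the Hsp47-deleted libraries. The groups did not overlap, but the lowest Hsp47-deleted library and the second-run control were close (fold change 0.88, SE 0.40, limma, adjusted p = 0.340). *Csnk1a1*, the kinase that primes β-catenin for degradation, had a fold change of 0.56 (adjusted p = 0.353). Of the TCF/LEF factors and cofactors, 3 of 8 were higher at an unadjusted p under 0.05 (background 14.5%), and 1 after centring (background 4.73%). The list median was 0.36, beside 0.355 for all tested genes. Of the 3, *Pygo2* had a fold change of 1.41, which was 0.066 against the second-run control. *Bcl9l*, a β-catenin cofactor, had a fold change of 1.53 (SE 0.47, limma, adjusted p = 0.282), which was 0.66 against the second-run control. *Tcf7l2*, a DNA-binding partner of β-catenin, had one of 0.98 (SE 0.32, limma, adjusted p = 0.283) and of 0.76 against the same control.

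Of 7 tested targets of β-catenin, 0 differed at an unadjusted p under 0.05, and the median was 0.43. Beside *Axin2*, *Nkd2*, a Wnt inhibitor, had the smallest p (0.77, adjusted p = 0.355). Of the 7 enzymes that cleave cadherins, 1 was higher at an unadjusted p under 0.05. This was *Psenen*, a subunit of γ-secretase, at 5.11, 5.31 and 7.16 in the controls and 7.32, 7.46 and 6.88 in the Hsp47-deleted libraries. Its fold change of 1.36 (adjusted p = 0.315) was 0.058 against the second-run control.

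**Figure D5:**
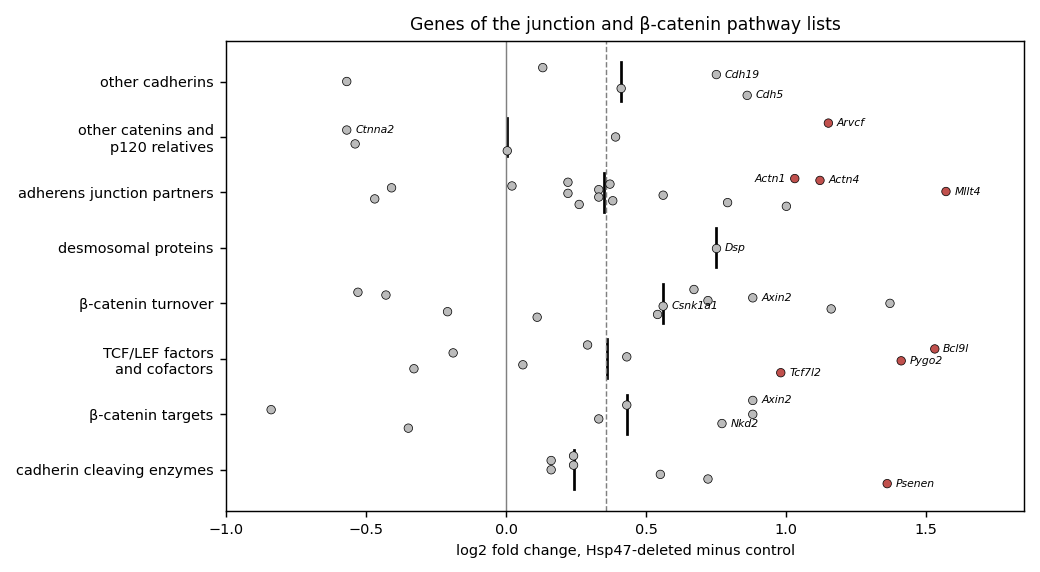
Log2 fold change (horizontal axis) of each tested gene in the 8 pathway lists, with red points for an unadjusted p under 0.05, black bars for list medians, a solid line at 0 and a dashed line at the median of all tested genes (0.355). *Mllt4* (1.57) and *Bcl9l* (1.53) lie farthest to the right, and the points below 0 are all grey.

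The genes most like *Cdh2*, *Cdh7* and *Cdh11* were sought among genes past the filter. The measure was the root mean square (RMS) difference of values centred on each gene's mean over the 6 libraries. For *Cdh2* the nearest genes were *Pycrl*, of proline synthesis (RMS 0.0669), and *Aspn*, which encodes the proteoglycan asporin (0.0766). *Aspn* was 7.68, 7.73 and 7.90 in the controls and 8.58, 9.0 and 8.66 in the Hsp47-deleted libraries. Of the 12602 genes searched, 149 lay within 0.2 of *Cdh2*. For *Cdh11* they were *Rorb* (0.0558) and *Iqsec3* (0.0599), among 186 genes within 0.2. For *Cdh7* the nearest were *Arhgap8* (0.181) and *Lrrc8b* (0.187), and no other searched gene lay within 0.2. Genes under the filter, like *Cdh7* itself, were not searched. Its number of close matches is therefore not comparable with those of *Cdh2* and *Cdh11*.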

How the data were processed

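RNA-seq was performed by the authors on sorted EGFP+ cells, with amplification of total RNA and tagmentation before sequencing. The authors deposited log2(value + 1) per gene for 6 libraries (3 per group). The submitters' processing notes name kallisto and mm10, and the paper names AltAnalyze. The linear unit, the annotation and the depth are not given in the sources used here. The table also holds the authors' group means, fold changes and p-values, which were not used.

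Values were used as deposited. Genes with a linear mean of at least 1 (15109 of 28987) entered a two-sided comparison by limma 3.58.1 (functions lmFit and eBayes, trend on; R 4.3.3), with Benjamini-Hochberg adjustment over all tested genes and a threshold of 0.05. Differences within libraries were compared by exact permutation in SciPy 1.17.1. The fit was tested on simulated data. Positions and overlaps came from GENCODE M21 (27458 genes matched), and near-identical transcripts from minimap2 2.31-r1302. The members and lists were chosen with earlier results of these data known. The text names the members, *Serpinh1*, the 2 genes of each pathway list with the smallest p (any called gene would also have been named, and 1 gene of the list of cleaving enzymes is not reported here), and the 2 genes most like each of 3 cadherins. Marker lists are given by counts and ranges. *Postn*, *Dcn*, *Cd68*, *Lyz2*, *Ttn*, *Nppa*, *Pygo2* and the overlapping genes were added after their values were seen. Alternatives were sequencing run as a covariate, the second run alone, the replicate block, other filters and pseudocounts, quantile normalization, centring, limma without trend or with robust estimation, leaving out each library, and *Ctnna1* as reference (chosen with its values seen).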

Additional observations from a re-analysis of the deposited data

How the results depend on the processing

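The number of called genes was 37 with the libraries as deposited. It was 0 with the replicate block (1545 genes at an unadjusted p under 0.05, limma), 16 with a pseudocount of 0.1, 18 after centring, 17 after quantile normalization and 8 to 2768 when 1 library was left out, with the highest number without control replicate 2. The groups share only the numbers 2 and 3, and deviations from the group means correlated at 0.156 and 0.228 within these pairs. The labels do not say that a number marks a shared litter or day, so the numbers were not taken as pairs. With the block, which leaves the difference to the libraries numbered 2 and 3, *Ctnnb1* moved to 1.65 and *Cdh2* to 1.10, and no member was called. Without control replicate 2, *Cdh2* (1.09) and *Ctnnb1* (2.33) passed the threshold. Leaving out 1 library gave 0.89 to 1.09 for *Cdh2*, 1.57 to 2.33 for *Ctnnb1* and -0.037 to 0.49 for *Cdh13*, the last turning without control replicate 4. With the second run alone, *Cdh11* was -0.11, *Cdh13* -0.50, *Ctnnb1* 0.85 and *Ctnnd1* 0.084. With run as a covariate, *Cdh13* (-0.50) and *Ctnnd1* (0.084) changed direction. After centring, *Cdh13* (-0.25) and *Ctnna1* (-0.23) did so and *Cdh7* passed the threshold (-1.56), and after quantile normalization *Cdh13* (-0.27) and *Ctnna1* (-0.16) did so. The cause was not tested. Differences from *Ctnnb1* in the second run alone were -0.0011 for *Cdh2*, -1.81 for *Cdh7*, -0.97 for *Cdh11*, -1.36 for *Cdh13*, -0.71 for *Ctnna1* and -0.77 for *Ctnnd1*. With a pseudocount of 0.1 that of *Cdh7* was -4.71, and with 5 those of *Cdh7* and *Cdh13* were -1.90 and -1.45. With *Ctnna1* as reference the differences were 0.83 for *Cdh2*, -1.32 for *Cdh7*, -0.76 for *Cdh11*, -0.019 for *Cdh13*, -0.30 for *Ctnnd1* and 0.84 for *Jup*. The depth is unknown, and 3 libraries per group limit the precision.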

Other observations

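With sequencing run as a covariate, in which the group difference rests on control replicate 2 and the 3 Hsp47-deleted libraries, 3 of the 11 genes of β-catenin turnover were higher at an unadjusted p under 0.05 (background 5.46%, limma), against 0 in the fit without it. They were named after their values were seen. *Axin1*, the scaffold of the destruction complex, gave 5.34 and 6.27 in the controls of the first run, 3.16 in that of the second, and 4.59, 4.18 and 4.71 in the Hsp47-deleted libraries, a difference of 1.33 with the covariate (adjusted p = 0.661) and of -0.43 without it. *Fbxw11*, a substrate receptor of the ubiquitin ligase for β-catenin, differed by 1.22 with the covariate (adjusted p = 0.716) and by -0.21 without it. *Gsk3a*, a kinase of the same complex, differed by 0.86 (adjusted p = 0.716) and by 0.54. *Axin1* and *Fbxw11* thus had opposite directions in the 2 fits, and control replicate 2 held the lowest value of the 6 libraries for all 3 genes (3.16 for *Axin1*, 5.00 for *Fbxw11* and 4.71 for *Gsk3a*). In the same fit 6 of the 59 tested genes of all pathway lists were higher and 0 lower at an unadjusted p under 0.05. The other 3 were *Mllt4* (1.04), *Actn4* (1.06) and *Myc*, a target of β-catenin, at 1.98 with the covariate (adjusted p = 0.641) and 0.88 without it. Control replicate 2 also held the lowest *Myc* value of the 6 libraries (7.06).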
